A study of Mus musculus with 12 samples.

Results

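The mRNAs described here are 10 transcripts of mature excitatory neurons, Camk2a, Camk2n1, Nrgn, Shank1, Dlg4, Ddn, Psd, Icam5, Snap25 and Syt1, many of which are known to be carried into dendrites. They are 10 of the 50600 genes of a count table that covers 12 libraries of sorted cells from the mouse dentate gyrus. The 10 were chosen from a gene list on the values of this table, over all 3 cell types and over the way they varied together between astrocyte libraries. Their levels, their differences between cell types and their order among libraries are therefore given as a description. Fitted differences and counts of calls are printed for them beside the share of all genes called, and nothing is read from those calls.

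Dentate gyri were dissected from adult Nestin-GFP mice aged 6 to 9 weeks, a line in which green fluorescent protein driven by Nestin regulatory sequence marks neural stem and progenitor cells. Live cells without CD31, CD45, O1 and O4 on their surface were gated by GFP and by GLAST, the glutamate transporter encoded by Slc1a3. The stem cell gate required both signals, the progenitor gate took GFP without GLAST and the astrocyte gate GLAST without GFP. No gate selected or removed mature neurons by a neuronal marker. Each cell type gave 4 libraries of 50 sorted cells each, preamplified as cDNA before library preparation. All groups carried the reporter, and the labels give no treatment.

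At an excitatory synapse, calcium that enters the dendritic spine binds calmodulin, which activates the kinase CaMKII, and scaffold proteins of the postsynaptic density hold this kinase near the glutamate receptors. Several of the mRNAs for these proteins are transported along dendrites and translated there, away from the cell body, and Camk2a is the textbook case. In the dentate gyrus the dendrites of granule neurons fill the molecular layer, where processes of astrocytes surround their synapses.

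The 10 genes lie on different chromosomes, except that Icam5 and Nrgn share chromosome 9. On GRCm38 with GENCODE M21 models, Camk2n1 is at chr4:138454314-138460123, Shank1 at chr7:44310253-44360572, Dlg4 at chr11:70016942-70047522 and Snap25 at chr2:136713453-136782428, with Icam5 at chr9:21032073-21039036, all on the plus strand. On the minus strand are Nrgn at chr9:37544492-37552904, Ddn at chr15:98803777-98809490, Psd at chr19:46312087-46327156 and Syt1 at chr10:108497650-109010982. Their merged exons span from 1453 bases in Nrgn to 13251 bases in Dlg4. Counting ignored strand, and 30.8% of the exonic bases of Icam5 are shared with Gm26592 and Gm47079 on the opposite strand, against 4.7% in Ddn, 3.9% in Psd, 3.2% in Shank1 and 0% in the other 6. Counts of Icam5 are therefore uncertain as to their strand.

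RefSeq promoter windows on GRCm38.p6, each with 250 bases before and 50 after an annotated start, were found for 5 of the 10 genes, Icam5, Nrgn, Syt1, Dlg4 and Psd, in 9 windows. Camk2a, Ddn, Shank1, Snap25 and Camk2n1 had no window. Among the motifs searched on both strands was the site of REST, a repressor of neuronal genes in non-neuronal cells, whose left part TTCAGCACC was in 1 window, of Psd, against 0.371% of all 32851 windows. Its right part GGACAG was in windows of Psd and Syt1, against 22.2% of all windows. The GC box GGGCGG was in 4 of the 9 windows, of Icam5, Nrgn, Syt1 and Dlg4, against 35.7% of all. Neither the TATA core TATAAA, in 13.6% of all windows, nor the cAMP response element TGACGTCA, in 1.79% of all, was in a window of these genes. The stretches of Psd, Syt1 and Icam5 are shown because they differ in these letters, and the capitals mark a motif on either strand. The first stretch of Psd holds none, and the short second stretch, from base 24 to base 48 after its start, holds the letters of both parts, 2 bases apart but on opposite strands and not in the order of a REST site, so it is not an intact site. That of Syt1 holds the right part, and that of Icam5 the GC box. A match of letters is a description and no evidence of binding.
Psd, chr19:46327157-46327406, minus strand: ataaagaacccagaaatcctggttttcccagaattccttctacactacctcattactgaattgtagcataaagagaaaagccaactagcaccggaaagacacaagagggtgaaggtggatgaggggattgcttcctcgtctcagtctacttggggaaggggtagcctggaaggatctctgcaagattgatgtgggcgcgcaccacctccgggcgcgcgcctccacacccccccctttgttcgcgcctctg
Psd, chr19:46327109-46327133, minus strand: ggcgCTGTCCccTTCAGCACCtcgc
Syt1, chr10:109010983-109011225, minus strand: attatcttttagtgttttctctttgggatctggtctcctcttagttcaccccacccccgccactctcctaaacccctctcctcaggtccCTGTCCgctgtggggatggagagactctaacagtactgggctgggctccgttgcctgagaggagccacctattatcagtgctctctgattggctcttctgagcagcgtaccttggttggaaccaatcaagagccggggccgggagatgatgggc
Icam5, chr9:21031788-21032037, plus strand: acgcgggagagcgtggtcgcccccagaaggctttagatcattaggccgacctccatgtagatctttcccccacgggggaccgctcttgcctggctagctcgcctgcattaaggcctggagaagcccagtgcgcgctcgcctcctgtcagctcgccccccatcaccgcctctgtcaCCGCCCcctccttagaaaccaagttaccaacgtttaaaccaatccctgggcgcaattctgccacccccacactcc

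Total counts on genes were between 5031166 and 12535028 per library, and levels are in CPM, the usual scaling of counts to library size, here with library sizes adjusted by edgeR's TMM method. The floor of 3 counts lay at 0.206 to 0.639 CPM, depending on the library. Without molecular identifiers, such floors cover counting error only. Astrocyte libraries carry the letters a to d and progenitor libraries likewise, since their columns give no number. Library a of the astrocytes stood apart. It had the fewest genes with a count (13987, against 15554 to 15777 in b to d), and of the 10201 genes with a mean of at least 10 CPM in astrocytes, 31.1% were highest and 35.2% lowest in it. All 12 genes of a list of astrocyte markers had at least 10 counts in every library of each cell type. Their summed level was 19336 to 25711 CPM in astrocytes, 9358 to 12230 CPM in progenitors and 29512 to 39047 CPM in stem cells.

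Camk2a, the alpha subunit of CaMKII, had levels that set the 3 cell types apart. Its gene is on the plus strand at chr18:60925618-60988152. It stood at 4052, 1473, 1498 and 459.9 CPM in astrocytes a to d, at 53.9, 74.3, 45.5 and 71.2 CPM in progenitors a to d, and at 180.5, 406, 260.1 and 327 CPM in stem cells 1 to 4. The 3 cell types did not overlap, and the order was astrocytes, stem cells, progenitors. Among all genes of a library, Camk2a ranked 14, 47, 52 and 241 in astrocytes a to d, between 244 and 873 in stem cells, and between 2702 and 4657 in progenitors. It alone took 0.322% of all counts of astrocytes a. In these libraries of pooled cells, fewer cells of a type and less RNA per cell cannot be told apart.

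Camk2n1, an inhibitor protein of CaMKII, stood at 231, 71.8, 41.1 and 23.9 CPM in astrocytes a to d, at 8.85, 13.3, 10.8 and 4.82 CPM in progenitors and at 14.3, 27.2, 30.3 and 46.6 CPM in stem cells. Astrocytes and stem cells both lay above all progenitors, but overlapped each other. Nrgn, which encodes neurogranin, a protein that binds calmodulin when calcium is low, stood at 155, 29.6, 55.5 and 7.15 CPM in astrocytes, at 3.84, 2.005, 3.05 and 2.15 CPM in progenitors and at 7.90, 30.5, 6.50 and 20.2 CPM in stem cells. Nrgn had the same order, with progenitors lowest and an overlap of the other cell types.

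Shank1, a scaffold of the postsynaptic density, stood at 1047, 139, 238 and 125 CPM in astrocytes a to d, at 29.3, 25.5, 24.9 and 28.2 CPM in progenitors and at 35.6, 145, 47.4 and 146 CPM in stem cells. The progenitor libraries were almost level, within 1.18-fold of each other, and lay below every library of the other cell types. Ddn, which encodes dendrin, a protein of dendrites and spines, stood at 2337, 466, 666 and 42.3 CPM in astrocytes, at 19.4, 31.5, 19.9 and 15.6 CPM in progenitors and at 119, 227, 124 and 128 CPM in stem cells. Ddn was lower in astrocytes d than in any stem cell library, while astrocytes a to c were higher than all of them.

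Dlg4, which encodes the scaffold PSD-95, overlapped between the cell types. It stood at 39.2, 30.1, 14.2 and 32.5 CPM in astrocytes, at 14.3, 5.68, 9.24 and 11.4 CPM in progenitors and at 38.9, 75.7, 16.01 and 8.17 CPM in stem cells. Astrocytes c lay just below the highest progenitor library, and the stem cell libraries reached from within the progenitor range to above all astrocytes. Psd, an exchange factor for the small GTPase ARF6, stood at 181, 75.1, 14.6 and 59.8 CPM in astrocytes, at 23.7, 11.2, 28.4 and 21.4 CPM in progenitors and at 2.15, 64.2, 11.3 and 25.3 CPM in stem cells. Here too the 3 cell types overlapped, and the stem cell libraries differed among themselves by 29.8-fold. Icam5, which encodes telencephalin, an adhesion molecule of dendrites in the forebrain, stood at 15.5, 8.77, 12.6 and 0.204 CPM in astrocytes, at 0.137, 0.167, 0 and 7.14 CPM in progenitors and at 0, 38.4, 0.125 and 0.186 CPM in stem cells. It was above 3 counts in 3 astrocyte libraries and in 1 library each of progenitors and stem cells.

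The last pair act in the axon terminal. Snap25, a membrane protein of the vesicle fusion complex, stood at 579, 191, 317 and 123 CPM in astrocytes, at 82.2, 83.2, 67.4 and 101 CPM in progenitors and at 51.8, 5.99, 73.8 and 42.9 CPM in stem cells. Its order was different from that of Camk2a, with all astrocytes highest and stem cells lowest but for library 3, which lay above progenitors c alone. Syt1, which encodes the calcium sensor synaptotagmin of synaptic vesicles, stood at 158, 84.8, 27.5 and 2.04 CPM in astrocytes, at 13.0, 23.1, 22.6 and 11.01 CPM in progenitors and at 5.13, 14.9, 7.51 and 27.3 CPM in stem cells. Astrocytes a and b lay above all other libraries and astrocytes d below them all.

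**Figure D1:**
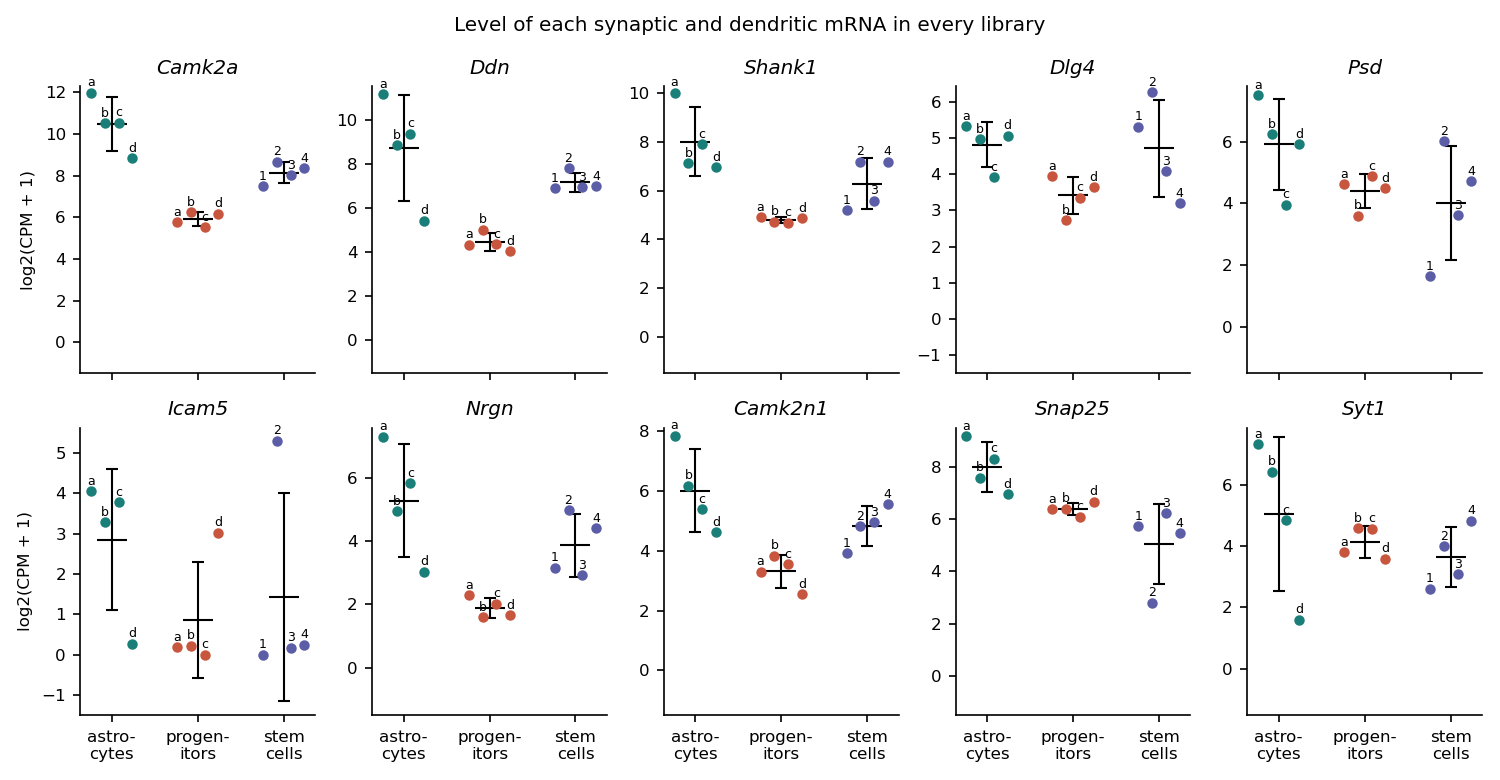
Level of each of the 10 mRNAs, as log2(CPM + 1) on the vertical axis, in the 4 libraries of each cell type, which are marked by their letter or number. Bars are the mean and SD of 4 libraries, and library a is the highest astrocyte library in all 10 panels.

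Summed over the 10 mRNAs, the level was 8795, 2569, 2884 and 876 CPM in astrocytes a to d, or 0.699%, 0.225%, 0.249% and 0.0800% of all counts. It was 232 to 274 CPM in progenitors and 455 to 1035 CPM in stem cells. Astrocytes d lay within the range of stem cells, and every progenitor library lay below every other library. Camk2a alone made up 46.1% to 57.3% of the sum in astrocytes, 39.2% to 45.0% in stem cells and 19.6% to 27.5% in progenitors. Divided by exon length, mean levels in astrocytes ran from 251 CPM per kilobase for Camk2a and 232 for Ddn, over 44.5 for Snap25, 42.6 for Nrgn and 36.8 for Shank1, to 3.15 for Icam5 and 2.19 for Dlg4. In progenitors Snap25 led with 12.3 CPM per kilobase, before Camk2a with 8.20 and Ddn with 5.71. In stem cells Ddn and Camk2a were level at 39.5 and 39.3 CPM per kilobase, and Nrgn followed with 11.2.

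Of astrocytes and progenitors, astrocytes had the higher fitted level of all 10 mRNAs. The log2 differences from edgeR, with their standard errors over 4 and 4 libraries, were 4.92 ± 0.60 for Camk2a, 3.26 ± 0.87 for Camk2n1 and 4.46 ± 1.07 for Nrgn. Among the scaffold and spine genes, they were 3.82 ± 0.71 for Shank1, 5.32 ± 0.98 for Ddn, 1.498 ± 0.82 for Dlg4 and 1.94 ± 0.80 for Psd. For Icam5, Snap25 and Syt1 they were 2.31 ± 1.79, 1.85 ± 0.49 and 1.94 ± 1.06. The median was 2.78, beside 0.03 over all 14806 genes tested. Camk2a, Camk2n1, Nrgn, Shank1, Ddn and Snap25 passed a Benjamini-Hochberg adjusted p threshold of 0.05 as higher in astrocytes, as did 2.45% of all genes tested, while 6.18% passed as lower. The same 6 had all astrocyte libraries above all progenitor libraries, as had 5.84% of all genes tested. Nothing is read from these counts, because the genes were chosen on these values. Without astrocytes a the median was 2.13, and 4 of the 10 passed, with Camk2n1 and Snap25 no longer among them. Without any 1 of the 4 progenitor libraries, and also without a count filter, 3 of the 10 passed. Without progenitors d, the difference of Icam5 was 6.31.

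Progenitors were lower than stem cells in most of the 10. The log2 differences of progenitors over stem cells were -2.30 ± 0.29 for Camk2a, -1.69 ± 0.56 for Camk2n1 and -2.59 ± 0.75 for Nrgn. They were -1.83 ± 0.48 for Shank1, -2.83 ± 0.33 for Ddn, -1.79 ± 0.70 for Dlg4 and -0.31 ± 0.83 for Psd. The genes of the axon terminal had positive values, 0.89 ± 0.57 for Snap25 and 0.30 ± 0.65 for Syt1. Icam5 had too few counts to enter this fit, and the median of the other 9 was -1.79, beside 0.04 over all 15427 genes tested. Camk2a, Shank1 and Ddn passed as lower in progenitors, as did 3.66% of all genes tested, while 4.95% passed as higher. With all 12 libraries in 1 fit only Camk2a passed, and with 1 library left out 2 to 4 passed. DESeq2 called 5, beside 3062 of 26218 genes in either direction. Camk2a, Shank1, Ddn, Nrgn and Camk2n1 had all progenitor libraries below all stem cell libraries, as had 7.5% of all genes tested. Nothing is read from these counts either. Without stem cells 2, the difference of Psd was 0.66.

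Between astrocytes and stem cells, 8 of the 10 mRNAs had the higher fitted level in astrocytes, with wide errors. The log2 differences of astrocytes over stem cells were 2.66 ± 0.56 for Camk2a, 1.62 ± 0.83 for Camk2n1 and 1.91 ± 1.04 for Nrgn. They were 2.03 ± 0.76 for Shank1, 2.55 ± 0.84 for Ddn, -0.27 ± 0.93 for Dlg4 and 1.67 ± 1.05 for Psd, and those of Icam5, Snap25 and Syt1 were -0.07 ± 1.98, 2.79 ± 0.74 and 2.30 ± 1.16. The median was 1.97, beside 0.14 over all 12831 genes tested. None of the 10 passed in edgeR, where 0.0468% of all genes tested passed as higher in astrocytes and 0% as lower. At an unadjusted p under 0.05 in edgeR, 4 of the 10 were higher in astrocytes, beside 33 of 122 listed genes outside the 10 in either direction. The share of all genes at that p is not given. The listed genes were chosen with results of these data known and count both directions, so they are no background for the 10. DESeq2 called 2, Camk2a and Snap25, beside 853 of 25727 genes in either direction. Camk2a and Snap25 also had all astrocyte libraries above all stem cell libraries, as had 3.69% of all genes tested, and again nothing is read from the counts. Without astrocytes a, the median was 0.91. Without stem cells 2, the difference of Dlg4 was 0.45 and that of Icam5 6.29. The sign of Icam5 turned with DESeq2-type size factors, to 0.03. The 3 comparisons share libraries in pairs, so their values for a gene are not independent of each other.

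**Figure D2:**
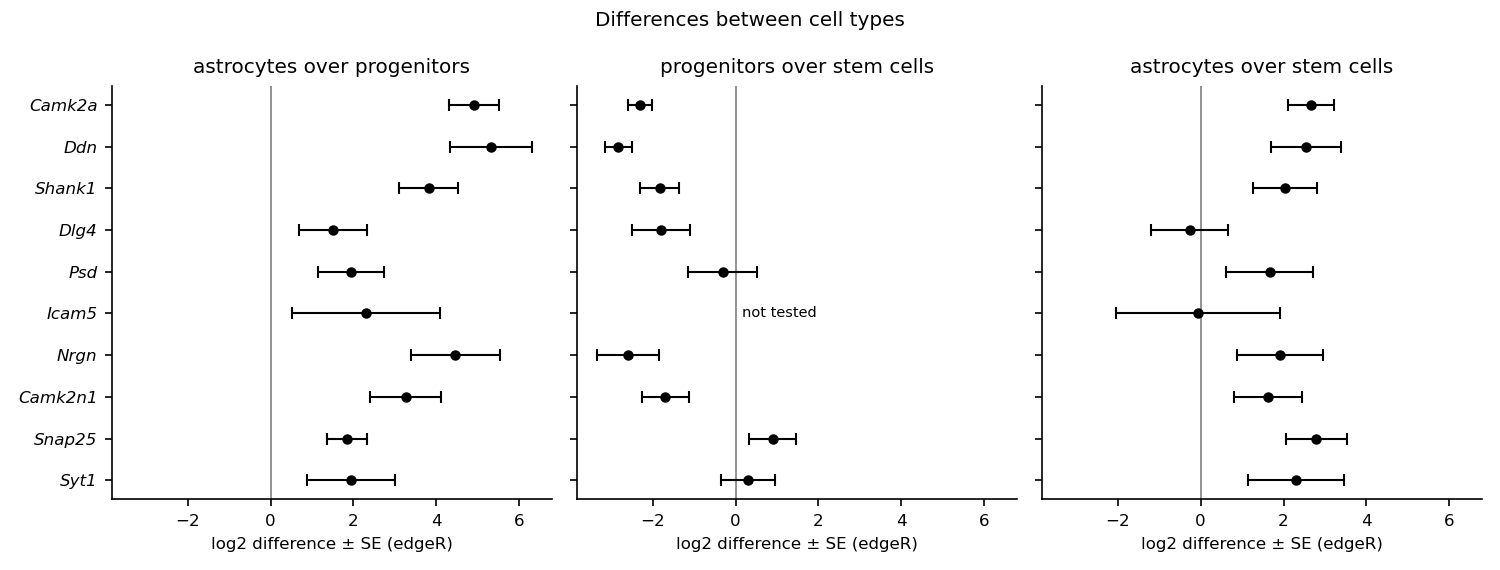
Log2 differences of the 10 mRNAs between cell types from edgeR, on the horizontal axis, with bars of 1 standard error. All 10 points lie right of 0 for astrocytes over progenitors, 7 of 9 lie left of 0 for progenitors over stem cells, and 8 of 10 lie right of 0 for astrocytes over stem cells.

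Between the 4 astrocyte libraries, the 10 mRNAs moved together to a large extent. All 10 were highest in astrocytes a, which held the highest value of 31.1% of all genes at 10 CPM or more. Of the 10, 8 were lowest in astrocytes d, which held the lowest value of 19.4% of those genes, whereas Dlg4 and Psd were lowest in astrocytes c. From the lowest to the highest library, Syt1 differed 77.3-fold, Ddn 55.3-fold, Nrgn 21.8-fold and Psd 12.4-fold. Camk2n1, Camk2a and Shank1 differed by 9.67-fold, 8.81-fold and 8.36-fold, Snap25 by 4.72-fold and Dlg4 by 2.76-fold. The median SD of log2(CPM + 1) was 1.41 for the 9 of the 10 at 10 CPM or more and 1.90 for all such genes. In progenitors the medians were 0.41 and 0.45, and in stem cells 0.99 and 0.64. The genes compared were not matched for level, so these medians do not show whether the spread was wide for genes as abundant as Camk2a. Among stem cells, 6 of the 10 were highest in library 2, where 27.3% of genes were highest, but Snap25 was lowest there. The covariation is part of how the genes were chosen, and 4 libraries are too few for a correlation.

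Further genes of the synapse were described by lists chosen with results of these data known, none of which holds any of the 10. Their p-values come from edgeR with adjustment over all genes tested and measure only the spread between libraries, which the study describes as biological replicates, with a single mouse brain sufficient for each. Of 19 tested genes of transmitter release, 1 was called higher in astrocytes than in progenitors, Cplx2, which encodes a complexin that binds the vesicle fusion complex (log2 difference 2.77 ± 0.61, adjusted p = 0.0191). The median of this list was 1.32. Of 23 tested genes of postsynaptic scaffold and signalling, with a median of 2.04, Ppp1r9b, the spine scaffold spinophilin, was higher (3.44 ± 0.69, adjusted p = 0.0160) and Nlgn3, an adhesion molecule of the synapse that shares 41.2% of its exonic bases with Gm21986, was lower (-1.92 ± 0.47, adjusted p = 0.0294). The 18 genes of calmodulin and CaMKII signalling had a median of 0.74, and none was called lower by edgeR, where 1 had an unadjusted p under 0.05 as lower and DESeq2 called 0 lower. Of 10 tested genes with other mRNAs known in dendrites, with a median of 1.51, 3 were higher, the AMPA receptor subunit Gria2, Ppp1r9b and Map2, a protein of dendritic microtubules that was named after its values were seen. These counts stand beside the 2.45% and 6.18% of all genes and the median of 0.03. Without astrocytes a, the medians of these 4 lists were 0.79, 1.27, 0.19 and 0.14, and Cplx2, Ppp1r9b, Gria2 and Map2 were still called higher. In turn, Calm2, Camk4 and Gria1 were then called lower. Over all 8 fits with 1 library left out, Cplx2 and Nlgn3 were each called in 4, Ppp1r9b in 7 and Gria2 in all 8.

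The summed levels of the release, postsynaptic and dendritic lists were, like the sum of the 10 mRNAs, highest in astrocytes a and lowest in astrocytes d, while b and c stood in the other order for release and dendritic genes. Genes of transmitter release summed to 4981, 1914, 1721 and 940.3 CPM in astrocytes a to d, and postsynaptic genes to 3563, 1823, 2149 and 950.3 CPM. The other dendritic mRNAs summed to 5508, 4551, 3789 and 2471 CPM, with 2790.0, 3107, 2536 and 2069 CPM from Gria2. Against progenitors, which summed to 736 to 868, 788 to 1179 and 1348 to 1705 CPM for these lists, every astrocyte library was higher for transmitter release and dendritic mRNAs. For release this turned for astrocytes d with raw library totals in place of TMM, at 859 CPM against 881 to 1040.2 CPM in progenitors.

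Between progenitors and stem cells, few genes of the synaptic lists were called. Syp, which encodes synaptophysin, a membrane protein of synaptic vesicles, was higher in progenitors (log2 difference 1.80 ± 0.44, adjusted p = 0.0307 in edgeR), as were Nlgn3, Calm2 and Camk1. Camk2g, another CaMKII subunit, was lower (-0.999 ± 0.24, adjusted p = 0.0282 in edgeR). None of the 12 other dendritic mRNAs was called by edgeR, where 3 had an unadjusted p under 0.05, and DESeq2 called 1, Gria1. The medians of the 4 lists were 0.18, -0.06, 0.64 and -0.21, beside 0.04 over all genes and 3.66% and 4.95% of genes called lower and higher. With all 12 libraries in 1 fit, none of these genes was called. Over the 8 fits with 1 library left out, Syp was called in 2, Nlgn3 and Camk1 each in 1, Camk2g in 3 and Calm2 in all 8. Between astrocytes and stem cells, no gene of any of the 15 lists was called by edgeR, 33 of 122 tested had an unadjusted p under 0.05, and DESeq2 called 12.

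General neuron and oligodendrocyte genes were, like the 10 mRNAs in sum, highest in astrocytes a and lowest in d, and their part in the levels was not tested. The 17 general neuron genes summed to 4630, 1038, 811 and 449 CPM in astrocytes a to d, to 956 to 1565 CPM in progenitors and to 212 to 407 CPM in stem cells. Celf4, an RNA-binding protein of neurons, and Nefl, the light neurofilament gene that shares 32.8% of its exonic bases with Nefm on the opposite strand, were higher in astrocytes than in progenitors (log2 differences 3.68 ± 0.78, adjusted p = 0.0170 in edgeR and 5.58 ± 1.47, adjusted p = 0.0412), but the median of the list was -0.42. Without astrocytes a, Nefl was no longer called, while Celf4 was. Over all 8 fits with 1 library left out, Nefl was called in 1 and Celf4 in 5. Only 7 of the 17 had at least 10 counts in every astrocyte library, and 16 had in every progenitor library. The 8 oligodendrocyte genes summed to 3205, 1373, 618 and 337 CPM in astrocytes a to d, in the order of the 10 mRNAs at both ends, against 249 to 417 CPM in progenitors and 477 to 821 CPM in stem cells. Mbp, the myelin basic protein gene, another mRNA known to be carried into cell processes, was higher in astrocytes than in progenitors (3.85 ± 0.92, adjusted p = 0.0263 in edgeR). With 1 library left out, Mbp was called in 4 of 8 fits. It stood at 2135, 629, 240.0 and 51.9 CPM in astrocytes a to d, while Mag, Cldn11 and Opalin were at 0 in all of them.

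Markers of particular neurons differed by list. The immature and granule neuron sums were, like the sum of the 10 mRNAs, highest in astrocytes a and lowest in d. The pyramidal sum was lowest in c and the interneuron sum highest in b. Of the 4 granule neuron genes with a mean of at least 10 CPM in astrocytes, 2 were highest and 2 lowest in a. The 8 immature neuron genes summed to 353, 30.9, 181 and 22.1 CPM in astrocytes a to d, against 1085 to 1715 CPM in progenitors and 20.4 to 44.2 CPM in stem cells. Igfbpl1 and Eomes were at 0 in all astrocyte libraries, and Dcx, a microtubule protein of young neurons, was at 0.183 to 0.613 CPM there, with at most 3 counts in each, and at 172 to 300 CPM in progenitors. The 7 granule neuron genes summed to 232, 143, 196 and 73.3 CPM in astrocytes a to d, 220 to 276 CPM in progenitors and 54.7 to 119 CPM in stem cells. Of these, Prox1, a transcription factor of granule neurons, had at least 10 counts in every astrocyte library, and it was higher in progenitors than in stem cells (3.25 ± 0.38, adjusted p = 0.00112 in edgeR). The 7 pyramidal neuron genes summed to 128, 15.3, 4.74 and 48.0 CPM in astrocytes a to d, with Spink8, Pou3f1 and Iyd at 0, against 49.0 to 84.3 CPM in progenitors and 36.4 to 113 CPM in stem cells. The 11 interneuron genes summed to 148, 279, 50.6 and 30.4 CPM in astrocytes a to d, with Slc32a1, Pvalb and Vip at 0, against 20.4 to 76.9 CPM in progenitors and 23.2 to 56.0 CPM in stem cells. The pyramidal sum of astrocytes a and the interneuron sum of astrocytes b were the highest of all 12 libraries. In astrocytes a, Fibcd1 alone stood at 126.5 CPM, and it was the only 1 of the 7 pyramidal genes with at least 10 counts there. Among interneuron genes chosen after their values were seen, Cck, a neuropeptide gene, stood at 109, 95.2, 43.9 and 2.45 CPM in astrocytes a to d, against at most 9.88 CPM in progenitors and 11.5 CPM in stem cells. Gad2, a GABA-synthesizing enzyme, and Sst, the somatostatin gene, stood at 83.8 and 62.8 CPM in astrocytes b. Gad1, another such enzyme, stood at 0.213, 37.4, 0 and 0.204 CPM in astrocytes a to d, against 13.5 to 31.8 CPM in progenitors. It was the only 1 of the interneuron genes with at least 10 counts in every progenitor library, as Cck was in astrocytes. Slc17a7, the vesicular glutamate transporter of mature excitatory neurons, stood at 397, 29.2, 4.74 and 25.1 CPM in astrocytes, at 0.277 to 4.87 CPM in progenitors and at 0.205 to 23.5 CPM in stem cells, and was chosen after its values were seen.

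The remaining marker lists differed in their order. The astrocyte markers were highest in astrocytes d, with 25711 CPM, and summed to 20580.0 CPM in a, and 5 of 12 were called higher in astrocytes than in progenitors, led by Slc1a2 (1.51 ± 0.15, adjusted p = 0.000963 in edgeR). In progenitors 11 of 12 were called lower than in stem cells. The 6 genes of oligodendrocyte precursors summed to 321, 43.1, 198 and 163 CPM in astrocytes a to d, with a highest as for the 10 mRNAs, against 1925 to 3202 CPM in progenitors and 63.7 to 144 CPM in stem cells. The 8 microglia genes summed to 60.9, 11.7, 37.5 and 295 CPM in astrocytes a to d, to 5.76 to 17.2 CPM in progenitors and to 25.8 to 69.1 CPM in stem cells. The 10 endothelial and mural genes summed to 49.4 to 196 CPM in astrocytes, 40.3 to 2105 CPM in progenitors and 52.8 to 188 CPM in stem cells.

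**Figure D3:**
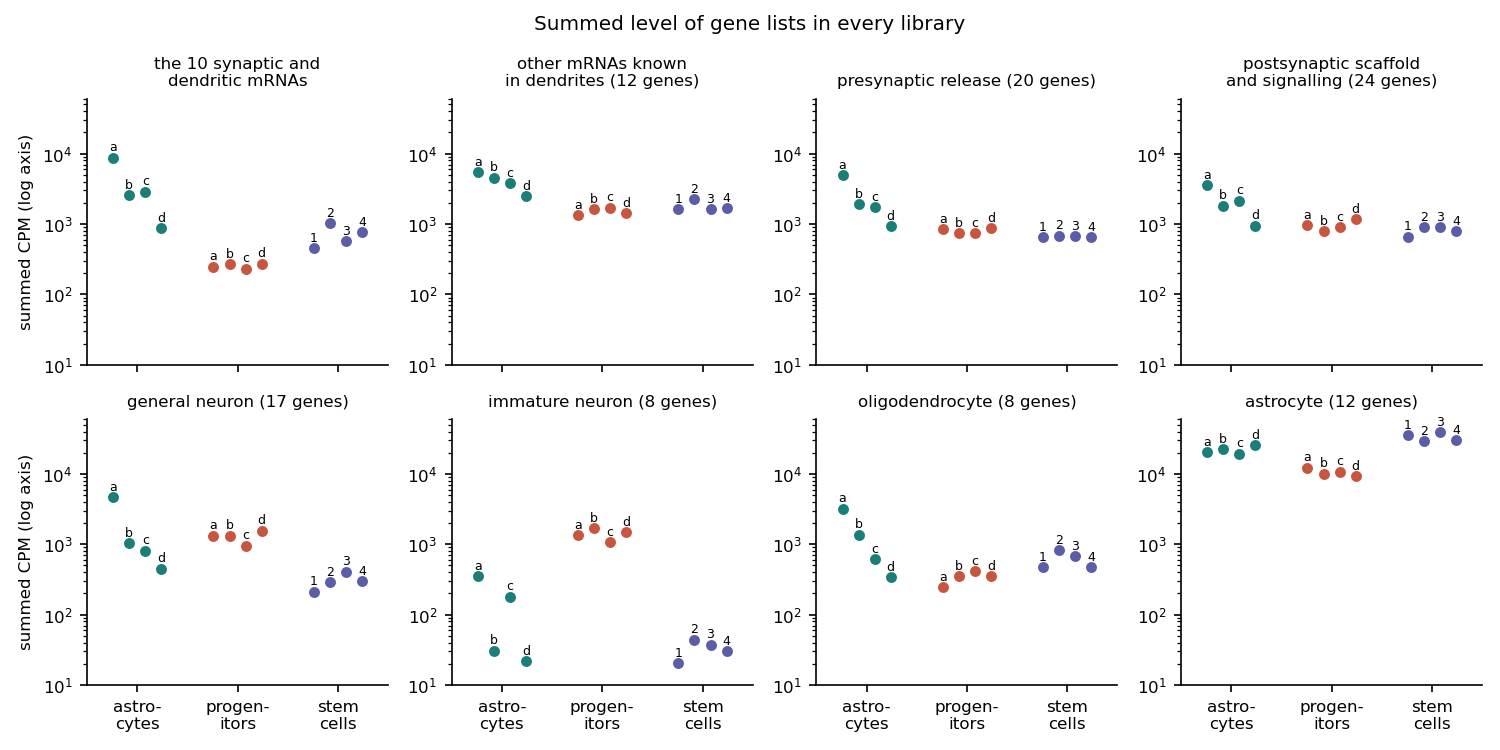
Summed CPM of the 10 mRNAs and of 7 gene lists in every library, on a log axis, with libraries marked by letter or number. In the panels of synaptic, general neuron, immature neuron and oligodendrocyte genes, astrocytes a is the highest astrocyte library and d the lowest. In the astrocyte panel d is the highest.

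The closest relatives of the 10 within their gene families followed them only in part. Of 17 with a mean of at least 10 CPM in astrocytes, 8 were highest and 4 lowest in astrocytes a, and 3 highest and 7 lowest in d. Of all such genes, 31.1% were highest in a and 19.4% lowest in d. Of 22 tested paralogues, none was called higher in astrocytes than in progenitors by edgeR, where 5 had an unadjusted p under 0.05 as higher and DESeq2 called 3, and 2 were called lower, Syt3 and Syt12, both of the synaptotagmin family. The median of the 22 was 0.92, beside 0.03 over all genes tested, with 14 positive and 8 negative values. With 1 library left out, Syt3 was called in all 8 fits and Syt12 in 4. Camk2b, the beta subunit of CaMKII, stood at 542, 191, 41.9 and 31.2 CPM in astrocytes a to d and at 37.6 to 100.2 CPM in progenitors, with the order of libraries of Camk2n1. Camk2g, by contrast, stood at 67.9, 42.6, 197 and 174 CPM in astrocytes a to d. Shank2 and Shank3 stood at 376, 4.93, 19.2 and 1.23 CPM and at 57.3, 10.4, 7.11 and 3.47 CPM, with a highest and d lowest as for Shank1. Dlg1 was lowest in astrocytes a, with 6.18 CPM, and highest in d, with 86.8 CPM. Psd2, another ARF6 exchange factor, was at 117, 186, 176 and 294 CPM in astrocytes a to d, with a lowest, where Psd was highest. Snap47 was higher in progenitors than in stem cells (0.79 ± 0.21, adjusted p = 0.0462 in edgeR). This call held in 1 of 8 fits with a library left out and in 3 of 5 other settings. Syt11, a synaptotagmin, stood at 393 to 667 CPM in astrocytes, 744 to 1102 CPM in progenitors and 671 to 878 CPM in stem cells, with a the lowest astrocyte library, where Syt1 was highest.

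The genes with the most similar profile over the 12 libraries were Gm29216, Gm26723, Gm28437, Cplx2 and Rpl31. Likeness was the root mean square difference of centred log2(CPM + 1) from the mean of the 10, and it was 0.35, 0.41, 0.46, 0.46 and 0.49 for these genes, beside a median of 2.07 over 12902 genes with a mean of at least 5 CPM. Cplx2 stood at 567, 189, 182 and 84.8 CPM in astrocytes a to d, at 21.2 to 47.6 CPM in progenitors and at 27.7 to 77.9 CPM in stem cells. Gm26723, a lincRNA gene, stood at 691, 189, 184 and 59.6 CPM in astrocytes, at 20.9 to 32.9 CPM in progenitors and at 42.9 to 97.7 CPM in stem cells. Rpl31, a ribosomal protein gene, stood at 638, 249, 158 and 96.2 CPM in astrocytes, at 65.7 to 86.0 CPM in progenitors and at 66.6 to 119.8 CPM in stem cells. Gm28437 and Gm29216 are annotated in GENCODE M21 as unprocessed pseudogenes, and 100% and 97.2% of their 31-base words are also in mitochondrial transcripts, most often mt-Co3 and mt-Co1, while reads from mitochondrial DNA had been removed before counting. Of the 10 themselves, Shank1 lay nearest to their mean, at 0.52, and Snap25 farthest, at 1.46. Over the astrocyte libraries alone, 1 of these 5 genes, Gm26723, was still among the nearest 5. The nearest 5 there were Btrc, Gm26723, Lancl1, Rps21 and Rpl38, and none of them is in the synaptic lists.

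**Figure D4:**
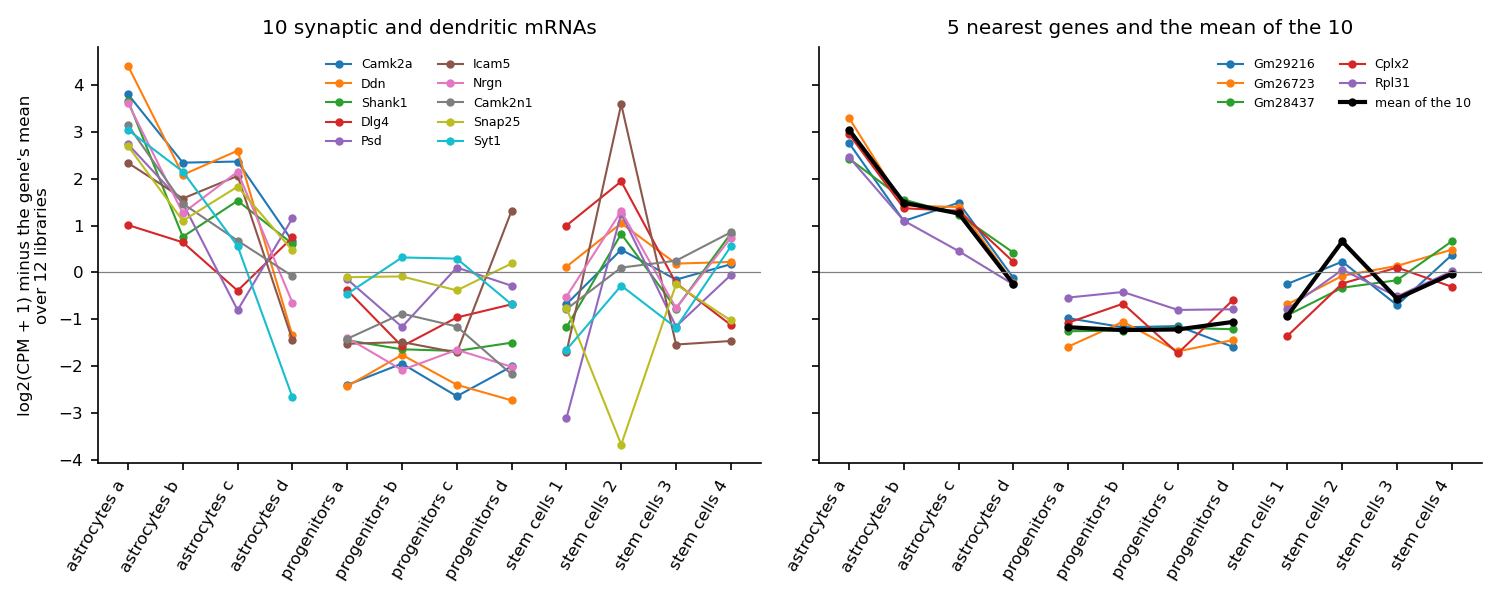
Centred log2(CPM + 1) on the vertical axis over the 12 libraries for the 10 mRNAs (left) and for the mean of the 10 beside the 5 nearest genes (right). The mean of the 10 is highest in astrocytes a and lowest in progenitors, and Snap25 and Icam5 leave the others in stem cells 2.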

How the data were processed

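Sorted cells of 3 types, 4 libraries each of 50 cells, were sequenced after SMARTer v4 preamplification and Nextera XT library preparation. The deposited values are whole-number counts per gene in 12 columns. Per the submitters' processing notes and the study's methods, the authors used CASAVA 1.8.2, HISAT2 2.0.6 on GRCm38.p4 and featureCounts with GENCODE M14 without strand, and discarded what aligned to mitochondrial DNA, ribosomal RNA or PhiX.

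GENCODE M21 gave symbols for 50376 of the 50600 identifiers, and Dlx6os1, with 2 identifiers, was left out. Genes that reached 10 counts in 4 or more of the 8 libraries compared (3 with a library left out) were tested in edgeR 4.0.16 (R 4.3.3) by the quasi-likelihood test on TMM-scaled counts, with Benjamini-Hochberg adjustment and a threshold of 0.05, for each pair of cell types. The study itself used DESeq2, which was run as an alternative (1.42.0), beside DESeq2-type size factors, no filter, a filter of 10 counts in every library, all 12 libraries in 1 fit, and each library left out. Summaries and plots used Python 3.11.15, numpy 2.4.6, pandas 2.3.3 and matplotlib 3.10.9. The tests were also run on simulated counts with known fold changes. Every gene and both cell types had the same dispersion there, so the unequal spread of these libraries was not covered. Some called genes of the lists are not reported here. The members, the lists and the rule for named genes (the 10, the 2 called genes of each list with the smallest adjusted p in each direction, paralogues, the 5 nearest genes and markers at 0) were chosen with earlier results of these data known. Total counts of 5031166 to 12535028 per library set the counting precision. No 2 libraries of a cell type agreed within sampling noise (lowest chi-square per degree of freedom 52.5).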

Additional observations from a re-analysis of the deposited data

Results flagged for a closer look

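In groups of 4 libraries, a library was noted where its gap to the nearest of the others, divided by the whole range, exceeded Dixon's critical value for 4 libraries. Of 78 groups checked, 7 met this. The critical value lets about 1 in 20 through by chance only for independent groups of normally distributed values. The lists share genes and libraries, and the 10 mRNAs were chosen on these values, so the count is not compared with chance. Among the 10 mRNAs, Ddn stood at 226.7 CPM in stem cells 2 (median of the other 3 libraries 124 CPM), and Shank1 at 1047 CPM in astrocytes a (median of the others 139 CPM). Icam5 stood at 7.14 CPM in progenitors d (median of the others 0.137 CPM) and at 38.4 CPM in stem cells 2 (median of the others 0.125 CPM). Among the lists, the other mRNAs known in dendrites summed to 2252 CPM in stem cells 2 (median of the others 1636 CPM). In astrocytes a, the general neuron genes summed to 4630 CPM (median of the others 811 CPM) and the paralogues to 3100.1 CPM (median of the others 1708 CPM).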

How the results depend on the processing

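No paired analysis was possible because the columns of astrocytes and progenitors carry no replicate number. The number of genes called between astrocytes and progenitors, 1278, was 2993 with DESeq2, 529 without a filter, 287 with 10 counts required in every library, and 719 to 1871 with 1 library left out. Calls among listed genes, 25, were 52, 10 and 10 to 38 with DESeq2, the strict filter and 1 library left out. Between progenitors and stem cells, 1327 became 3062 with DESeq2, 445 with 12 libraries in 1 fit, and 830 to 1383 with 1 left out, and the 35 listed calls became 60 and 21 with DESeq2 and 12 libraries. Between astrocytes and stem cells, 6 became 853 with DESeq2, 16 without a filter, 12 with the strict filter, 343 with 12 libraries and 0 to 8 with 1 left out, and the 0 listed calls became 12, 1 and 4 with DESeq2, without a filter and with 12 libraries. The median of the 10 mRNAs there, 1.97, was 0.913 (without astrocytes a) to 2.41. With raw totals in place of TMM, their summed mean level in progenitors was 304 CPM in place of 256. Of the 5 nearest genes, 1 was shared over astrocyte libraries alone. The strict filter kept 5862 genes between astrocytes and progenitors, and their log2 differences shifted by a median of -0.37 from the main fit. The median over the genes tested was 0.13 there, against 0.03 in the main fit. Calls there were 66.6% higher in astrocytes, against 28.4%. For the other changes the cause was not tested. Among the 10 mRNAs and the named called genes of the lists, no called value changed its sign under these settings. Other called genes were not checked for this. The named list genes lost their call in 90 combinations of gene and setting.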
